A study of Mus musculus with 4 samples.

Results

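The cells described here are those that the authors annotated as adrenal gland among single cells of mouse gonads dissected with the attached mesonephros. The annotation was the only criterion for membership, and it named 431 of 52745 cells in all. There were 241 such cells in the XY control at E11.5, 127 in the XY KO at E11.5, 55 in the XX control at E11.5 and 8 in the XY KO at E11.75. The last sample held too few cells for a comparison across genes, and its values are set beside the others at the end.

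The study asked what the loss of the miR-17~92 microRNA cluster does to the embryonic gonad, and adrenal cells were collected with it because both organs lie side by side at this stage. XY KO embryos carried a homozygous deletion of miR-17~92 made with CRISPR in G4 embryonic stem cells (an XY line from a C57BL/6J and 129 cross) and were grown by tetraploid aggregation, in which the embryo proper comes from the stem cells. Edited cells were picked as clones, so that the deletion and any other feature of the clone cannot be told apart in the KO values. XY control embryos came from unedited G4 cells by the same method. XX control embryos came from breeding of C57BL/6J and 129 mice, and the labels give the strain of all samples as C57BL/6 x 129S4/SvJae. Each sample was 1 pool of several pairs of gonads, so there was 1 sample per group and no animal can be told from another. The E11.5 samples were each loaded as 2 technical runs. Sex, breeding method and depth cannot be told apart in the XX sample. No p-value is given anywhere below. All intervals are 95% intervals that cover counting error only, and the runs show technical spread alone.

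The adrenal cortex arises from cells of the coelomic epithelium that also give rise to the somatic gonad, under the nuclear receptor NR5A1. Its cells make steroids from cholesterol: STAR moves cholesterol into the mitochondrion, CYP11A1 cuts its side chain with electrons passed on by FDXR and FDX1, 3-beta-hydroxysteroid dehydrogenases (HSD3B) and CYP21A1 modify the product, and CYP11B1 completes corticosterone, the main glucocorticoid of the mouse. The pituitary hormone ACTH drives this through its receptor MC2R, which needs the accessory protein MRAP, and through cAMP and protein kinase A. At this stage the primordium is young and not yet enclosed by a capsule.

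The deleted cluster encodes 6 mature miRNAs in 4 seed families on chromosome 14. These strands are shown because a direct effect of the deletion on a transcript could run through their seeds, bases 2 to 8, given in capitals (RefSeq, GRCm38.p6, plus strand, 115043684 to 115044496). Sites of the opposite strands were not searched. The miR-17 and miR-20a seeds are the same, as are those of miR-19a and miR-19b.
miR-17-5p: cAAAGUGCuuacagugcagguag
miR-20a-5p: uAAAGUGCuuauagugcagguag
miR-18a-5p: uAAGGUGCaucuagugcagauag
miR-19a-3p: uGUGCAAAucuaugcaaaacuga
miR-19b-3p: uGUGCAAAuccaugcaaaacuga
miR-92a-3p: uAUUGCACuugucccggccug

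An 8mer site in a 3′ UTR pairs with the seed and has an A opposite base 1. In the longest annotated 3′ UTR of each gene (GENCODE M21, mm10), none of Star, Cyp11a1, Cyp21a1, Hsd3b1, Hsd3b6, Mc2r, Mrap, Fdx1, Fdxr and Nr5a1 held an 8mer site of any family. Shorter seed matches were not searched, so these genes are not shown to lack target sites. The sites below belong to some of the genes that return in the results, with the 8mer in capitals and up to 7 bases on each side. Other genes named later also held an 8mer site that is not shown. Among them are Nr3c1 and Slc35e1 (miR-18), Prss35 (miR-19), and Ibsp and Adcy3 (miR-92). Abca1 (chr4:53030998-53031019, minus strand), Pbx3 (chr2:34172679-34172700, minus strand) and Grin2b (chr6:135729382-135729403, minus strand) each held a miR-17 site, and the 18865-base 3′ UTR of Grin2b also held a miR-18 and a miR-19 site, not shown. Magi2 (chr5:20704461-20704482, plus strand), Dlk1 (chr12:109461522-109461543, plus strand) and Scarb1 (chr5:125277381-125277402, minus strand) held a miR-19 site, and Plekhm3 (chr1:64791135-64791156, minus strand) held a miR-92 site.
Abca1: attccaaGCACTTTAtgctgtc
Pbx3: aaagaaaGCACTTTAtccaatt
Grin2b: tgagcacGCACTTTAcctgagt
Magi2: actctaaTTTGCACActtcaca
Dlk1: accaaggTTTGCACAggcttta
Scarb1: tgaccagTTTGCACAcacactc
Plekhm3: gggaagtGTGCAATAttgtttt

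Unique molecular identifiers (UMIs) were summed over the adrenal cells of each sample, and levels are given as CPM, the count of a gene scaled to the total count of all genes. Adrenal cells held 1365137 UMIs in the XY control, 910288 in the XY KO and 1223890 in the XX control, with medians of 5486, 6856 and 18656 UMIs per cell. XX cells were therefore the deepest, and 10 of the 55 held at least 30000 UMIs. The authors kept only XY cells under 30000 UMIs, so no XY cell could reach this depth. Mitochondrial genes took between 3.80% and 4.94% of adrenal UMIs in the E11.5 samples. Over all 52745 cells, the 7 libraries shared 345 cell barcodes summed over 21 pairs, and no barcode was shared between adrenal cells of different libraries. The host gene of the cluster, Mir17hg, whose 3′ end can still be counted after the deletion, was at 10.3 CPM in control adrenal cells (5.61 to 17.2), 147 in the KO (123 to 174) and 12.3 in the XX control (6.86 to 20.2). Xist was at 854 CPM in XX adrenal cells and had 0 UMIs in both XY samples.

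The labelled cells were described by 5 markers. The authors named clusters by their expression markers, so the levels are no independent check of the label. By level, Star, Cyp21a1 and Mc2r set the adrenal cells apart, whereas Cyp11a1 was shared with gonadal types. Control adrenal cells held 30.7% of all Star UMIs of that sample, 15.5% of those of Mc2r and 16.8% of those of Cyp11a1. Star (chromosome 8, 25806555 to 25815982, plus strand) was at 265 CPM in control adrenal cells, and the next highest type, the bipotential progenitors or pre-supporting cells of the gonad, was at 27.7. Cyp21a1 (chromosome 17, 34801348 to 34804561, minus strand), the 21-hydroxylase that separates adrenal from gonadal steroid synthesis, was at 76.9 CPM against at most 1.06 elsewhere, and 84.0% of all Cyp21a1 UMIs of the control lay in its adrenal cells although these made up 1.02% of its cells. The ACTH receptor Mc2r was at 105 CPM (chromosome 18, 68406907 to 68429320, minus strand), with 20.9 in interstitial cells. Cyp11a1 (chromosome 9, 58006411 to 58027023, plus strand) was at 152 CPM in control adrenal cells and 70.4 in pre-supporting cells. In the XX control it was higher in pre-supporting cells (142 CPM) than in adrenal cells (120.1). In the KO the 24 supporting cells were at 79.3 CPM, beside 69.2 in adrenal cells. The value in supporting cells rests on 12 UMIs, so no order is read.

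Hsd3b6 went against its use as a marker. It had 2, 1 and 1 UMIs in the adrenal cells of the XY control, XY KO and XX control, and at 1.47 CPM in the control it stood beside 1.40 in the mesonephros. The member of its family counted in these cells was Hsd3b1 (chromosome 3, 98852194 to 98859794, minus strand), at 111 CPM in the control (94.3 to 131). The genes of this family are close copies of one another, so that the assignment of reads among them is uncertain.

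**Figure D1:**
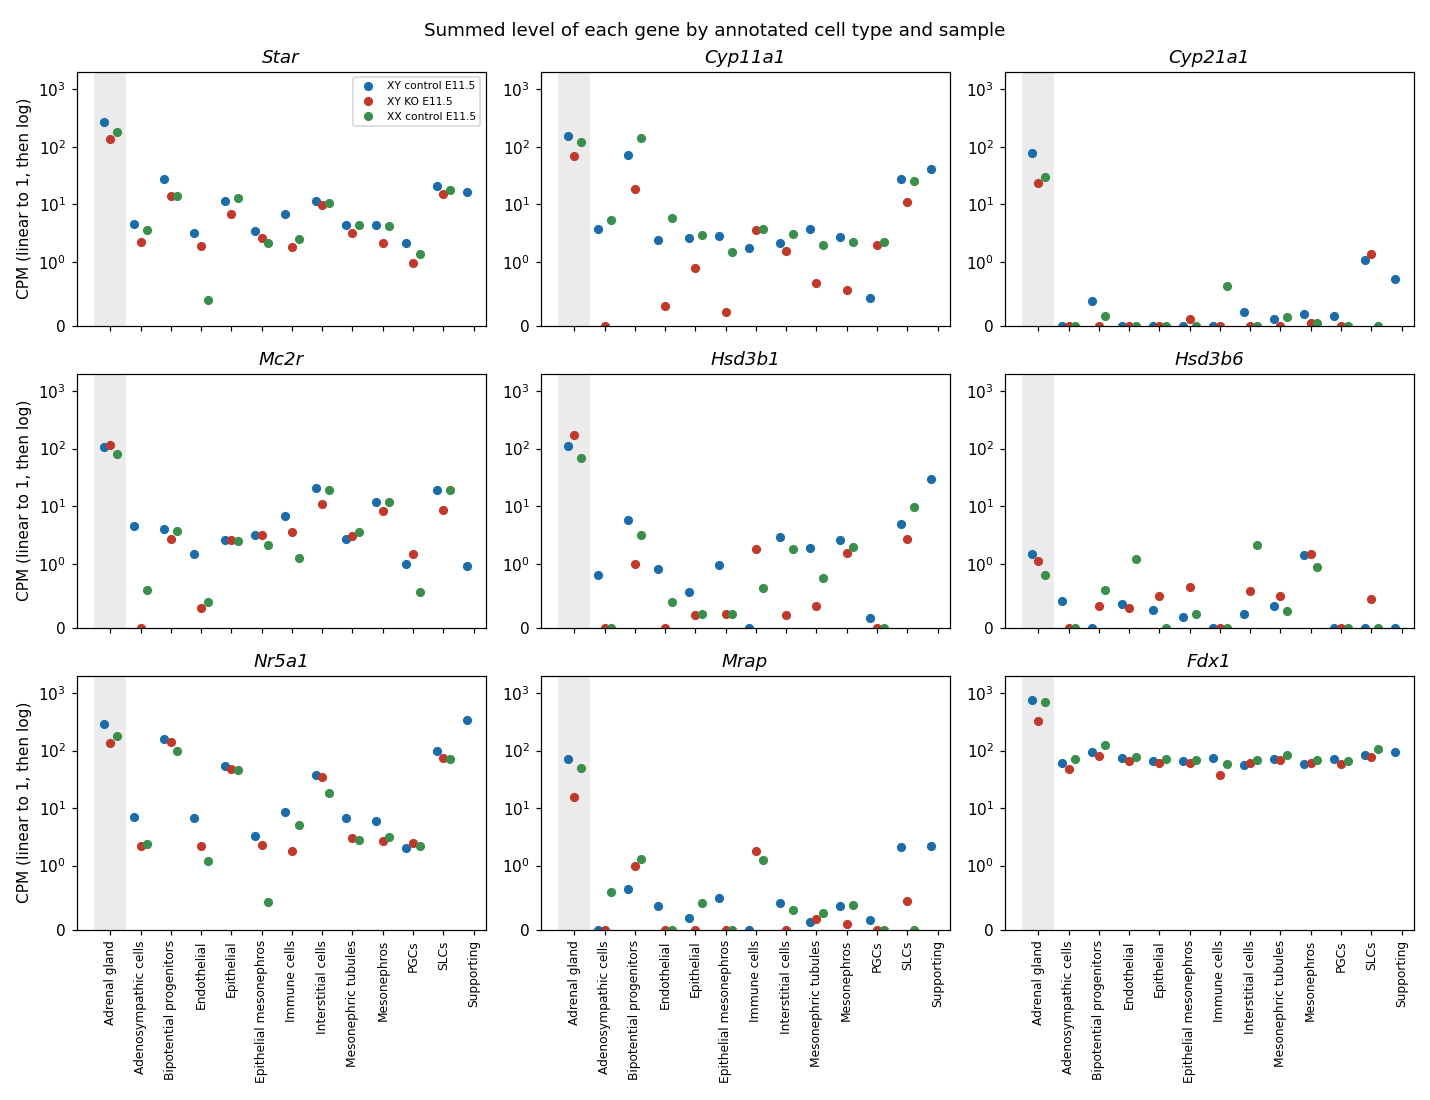
Level in CPM of 9 genes (vertical axis, linear to 1 and logarithmic above) in each annotated cell type (horizontal axis, adrenal cells shaded), 1 point per E11.5 sample and type with at least 50 cells. Star, Cyp21a1, Mc2r, Hsd3b1, Mrap and Fdx1 stand highest in the shaded column in each sample, Nr5a1 and Cyp11a1 are shared with gonadal types, and Hsd3b6 is at or below 2.09 CPM in every type shown.

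Defining markers of most other cell types were low in adrenal cells. The sum of 16 neural crest and chromaffin markers was 24.2 CPM in the control, 9.89 in the KO and 9.80 in the XX control, with 5, 11 and 10 of the genes at 0 UMIs. Endothelial markers summed to 39.6, 45.0 and 51.5 CPM and immune markers to 23.4, 7.69 and 18.8 CPM over 10 genes each. Germ cell markers summed to 82.8, 41.7 and 98.9 CPM and those of mesonephric tubules to 60.8, 21.97 and 33.5. Markers of mesenchyme (579, 664 and 565 CPM) and of the gonadal soma (454, 433 and 504 CPM) were higher, in 10 and 16 genes. Wt1, which marks the gonadal and mesonephric lineages, was at 33.7 CPM in control adrenal cells against 639 in supporting cells, and Gata4, a factor of the somatic gonad, at 10.99 against 365. Gata6 (134 CPM) and Hoxb9 (93.8 CPM) were present. Erythroid markers, mostly globins, did differ: they summed to 2312 CPM in the control, 834 in the KO and 751 in the XX control. All 5 of those with enough UMIs were lower in both comparisons, led by the embryonic globins Hbb-bh1 (log2 ratio -1.90, -2.72 to -1.22, in the KO) and Hbb-y (-1.83, -1.98 to -1.68, in the XX control). Hba-x was at -1.44 and -1.58, and Hba-a1 at -1.12 and -1.41. The study's methods give a higher globin cutoff for XY control cells than for XY KO cells at E11.5, and XX cells were filtered by cluster. The filter thus admitted cells with a larger globin share in the XY control than in the KO. Its part in these sums, and that of such RNA in the results below, was not tested.

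Adrenal cells made up 1.02% of all cells in the XY control (241 of 23527, exact Clopper-Pearson interval 0.900% to 1.16%), 0.745% in the XY KO (127 of 17057, 0.621% to 0.885%) and 1.499% in the XX control (55 of 3669, 1.13% to 1.95%). The 2 runs of each sample gave 1.06% and 0.992%, 0.677% and 0.802%, and 1.61% and 1.37%. The runs of the 3 samples therefore did not overlap, but the order depended on what was counted. Without mesonephros cells the intervals of the KO (1.29% to 1.84%) and the XY control (1.71% to 2.20%) overlapped. Cells with at least 2 of the 5 markers, each cut down at random to 3000 UMIs, made up 0.395% in the XY control and 0.170% in the KO. In the XX control they made up 0.273% (0.131% to 0.501%), below the XY control. The shares depend on how much adrenal tissue was cut out with each gonad, which was not measured, and the XX cells passed other filters than the XY cells. In the XY KO at E11.75 the share was 0.0942% (8 of 8492).

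The first comparison asked how steroid synthesis genes stood in KO adrenal cells. Of 6530 genes with 50 UMIs or more in the pair of samples, 0.49% had a log2 ratio of KO over control at or above 1 and 2.27% at or below -1, and the median log2 ratio of all genes was -0.06. For 28.7% of these genes both runs of the KO lay below both runs of the control, and for 17.4% above. Between the runs of 1 sample, a log2 ratio at or past 1 in either direction was seen for 0.333% of genes in the control, 0.469% in the KO and 1.19% in the XX control.

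Several genes of steroid synthesis were lower in the KO, with Hsd3b1 as the main exception. In sums over cells, fewer expressing cells and less RNA per cell cannot be told apart. Of 21 genes of the list that were counted, 11 had enough UMIs, and 8 of these had a log2 ratio below 0, 3 of them at or below -1. Of all genes, 57.9% were below 0 and 2.27% at or below -1. The median log2 ratio of the 11 was -0.49, and 7 of the 11 had both KO runs below both control runs, beside 28.7% of all genes. Over the 4 pairings of a KO run with a control run the median of the same 11 genes lay between -0.55 and -0.33, and for run 2 alone it was -0.74 over the genes that reached 50 UMIs in that run.

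Star was at 279 and 248 CPM in the runs of the control and at 150 and 128 in those of the KO. Its log2 ratio was -0.95 (-1.25 to -0.65). Cyp11a1 was at 163 and 139 CPM in the control and at 73.6 and 65.9 in the KO, 2.19-fold lower (log2 ratio -1.13, -1.57 to -0.73). In both genes the KO runs lay well below the control runs. Cyp21a1 was at 81.0 and 72.1 CPM in the control and at 25.4 and 21.3 in the KO, 3.27-fold lower, with a log2 ratio of -1.71 (-2.49 to -1.05). Cyp21a1 has a near-identical pseudogene beside it in the mouse genome, so that its counts are uncertain where reads could be split.

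The electron carriers of the mitochondrial cytochromes were the most abundant of the list. Fdx1, ferredoxin, was at 782 and 756 CPM in the control runs and at 386 and 291 in the KO runs, a log2 ratio of -1.21 (-1.40 to -1.03). Fdxr, its reductase, was at 648 and 631 against 472 and 378 CPM, a log2 ratio of -0.61 (-0.79 to -0.44). Por, the reductase of the microsomal cytochromes that include CYP21A1, had a log2 ratio of -0.49 (-0.97 to -0.04), whereas for Cyb5a, cytochrome b5, the interval spanned 0 (-0.08, -0.31 to 0.15), as it did for its reductase Cyb5r3 (-0.33, -0.72 to 0.05).

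Hsd3b1 went the other way. It was at 123 and 97.7 CPM in the control runs and at 203 and 149 in the KO runs, 1.55-fold higher (log2 ratio 0.63, 0.30 to 0.96), and the KO runs lay above the control runs. The cholesterol carriers Tspo (0.40, -0.29 to 1.08) and Stard3 (0.44, -0.33 to 1.21) had positive log2 ratios with intervals that spanned 0.

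The XX control was set against the same XY control, so both comparisons share that sample and are given side by side only. Of 6954 genes with 50 UMIs or more in the pair, 0.403% had a log2 ratio at or above 1 and 1.16% at or below -1, with a median of -0.05. Both XX runs lay above both XY runs for 17.3% of these genes and below them for 26.4%. Of the 11 steroid synthesis genes, 10 had a log2 ratio below 0, 10 had both XX runs below both XY runs and 1 was at or below -1, beside 56.2% of all genes below 0. Their median was -0.50, with -0.27 to -0.50 over the pairings of runs.

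Star was at 166 and 193 CPM in the XX runs (log2 ratio -0.57, -0.82 to -0.33), and in the XX cells under 30000 UMIs the log2 ratio of Star was -0.30. Fdxr was at 468 and 424 (-0.52, -0.67 to -0.36). Cyp21a1 was at 41.8 and 14.4 CPM, a log2 ratio of -1.37 (-1.98 to -0.83), and 41.7% of its 36 XX UMIs came from 1 cell. The log2 ratio of Cyp21a1 was -0.94 in run 1 and -2.25 in run 2 of both samples, and -2.07 without the highest cell of each sample. Cyp11a1 was at 117 and 124 CPM, with a smaller difference (-0.34, -0.66 to -0.03), and for Fdx1, at 755 and 663 CPM, the interval reached 0 (-0.11, -0.24 to 0.02). Hsd3b1 was lower than in the XY control, at 79.2 and 55.9 CPM (-0.69, -1.10 to -0.30). The XX and KO samples thus stood on opposite sides of the XY control for Hsd3b1, while the KO but not the XX control was far below it in Fdx1.

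**Figure D2:**
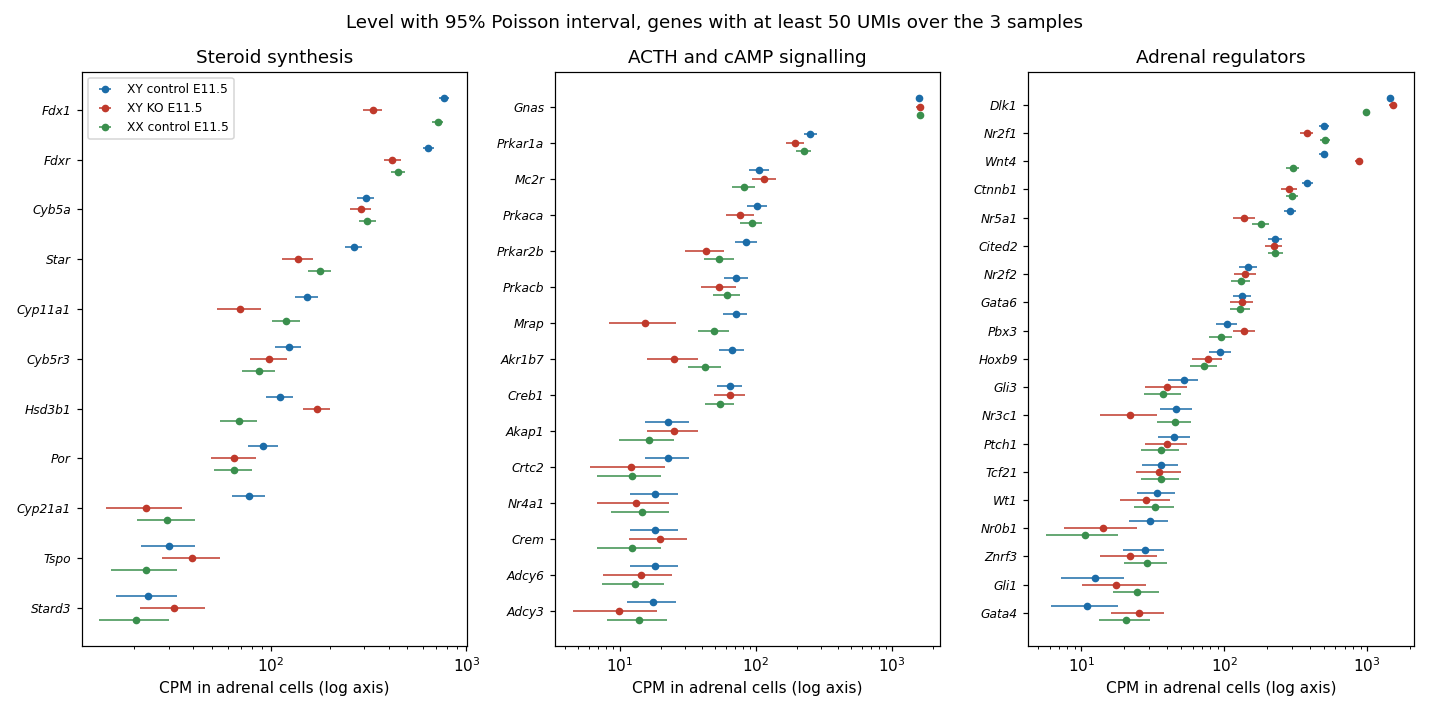
CPM in adrenal cells (horizontal log axis) with 95% Poisson intervals for steroid synthesis, ACTH and cAMP signalling genes and adrenal regulators that had 50 UMIs or more in the 3 E11.5 samples, coloured by sample. For Fdx1, Cyp11a1, Cyp21a1, Mrap, Akr1b7 and Nr5a1 the XY KO interval lies below that of the XY control, whereas for Hsd3b1 and Wnt4 it lies above.

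The terminal steps were seen in few cells. Cyp11b1, the 11-beta-hydroxylase (chromosome 15, 74834125 to 74841643, minus strand), had 32 UMIs in 21 of the 241 control cells, 15 of which also held Star. These were 32 of the 34 Cyp11b1 UMIs counted in all cells of the control. In the KO there was 1 UMI in 1 of 127 cells, a log2 ratio of -3.85 (-9.76 to -1.83). In the XX control there were 0 UMIs, which allows up to 2.45 CPM, so that the XY control at 23.4 CPM was at least 9.56-fold higher. The 8 KO cells at E11.75 held 4 UMIs. Cyp11b1 has a close paralog, Cyp11b2, and reads of the pair could be split. Cyp17a1, the 17-hydroxylase that the adult mouse adrenal lacks, had 23 UMIs in the control, of which 17 lay in 1 cell and 6 in another, both from run 1. Both cells also held Star and Hsd3b1. Adrenal cells of the KO and the XX control had 0 UMIs of Cyp17a1, which allows up to 3.30 and 2.45 CPM. The 21 cells with Cyp11b1 and these 2 cells were few enough that no level per cell can be compared.

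Genes of cholesterol supply were counted in the same way. Of 24 of the 32 genes with enough UMIs in the KO comparison, 18 had a log2 ratio below 0, beside 57.9% of all genes. Of these 24, 2 were at or below -1, beside 2.27% of all genes. Both KO runs lay below both control runs for 12, beside 28.7%. None was at or above 1, and the median was -0.25. Of 27 genes in the XX comparison, 17 were below 0, a share near the 56.2% of all genes. At or below -1 were 3, beside 1.16% of all genes, and 11 had both XX runs below both XY runs, beside 26.4%. None was at or above 1, and the median was -0.18. Abca1, a cholesterol exporter at the cell membrane whose 3′ UTR carries the miR-17 site shown above, was at 83.7 and 99.3 CPM in the control runs, 20.3 and 23.2 in the KO runs and 71.7 and 86.5 in the XX runs. The KO was 4.05-fold below the control (log2 ratio -2.02, -2.81 to -1.36), and the XX control overlapped it (-0.21, -0.61 to 0.18). Nceh1, a cholesterol ester hydrolase, was at 52.7 CPM in the control, 18.7 in the KO (-1.47, -2.35 to -0.72) and 24.5 in the XX control (-1.09, -1.77 to -0.47).

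Lipe, hormone-sensitive lipase, which frees cholesterol from its stored esters, fell short of the minimum with 46 UMIs over both samples and is named because of its values. It had 45 UMIs in 38 control cells, 1 UMI in the KO and 31 UMIs in 19 XX cells, with a log2 ratio of -4.34 for the KO (-10.24 to -2.36) and -0.37 for the XX control (-1.09 to 0.31). Scarb1, the receptor that takes up cholesterol from HDL, had its difference in the XX comparison: 48.2 CPM against 98.9 in the XY control (-1.03, -1.50 to -0.59) and 92.3 in the KO (-0.10, -0.51 to 0.30). Stard4, a cytosolic cholesterol carrier, was at 31.5 CPM in control cells, 16.5 in the KO (-0.90, -1.89 to -0.06) and 13.9 in the XX control (-1.16, -2.08 to -0.34), where run 1 alone gave -2.23 and run 2 alone -0.14.

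For ACTH signalling, receptor and accessory protein differed in the KO. Mc2r was at 104 and 107 CPM in the control runs and at 112 and 118 in the KO runs, and the interval of its log2 ratio spanned 0 (0.13, -0.25 to 0.50). Mrap (chromosome 16, 90738207 to 90749785, plus strand), without which MC2R does not reach the cell surface, was at 70.2 and 72.1 CPM in the control and at 17.8 and 13.6 in the KO, 4.48-fold lower (log2 ratio -2.16, -3.13 to -1.39). In XX cells Mrap was at 53.8 and 43.3 CPM (-0.53, -1.02 to -0.06) and Mc2r at 102 and 57.7 (-0.37, -0.75 to 0.01). The intervals of these log2 ratios in the KO did not overlap between receptor and accessory protein.

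Downstream, Gnas, the stimulatory G protein, was even across samples at 1575 CPM in the XY control, 1590 in the KO and 1600 in the XX control. The regulatory subunits of protein kinase A were lower in the KO: Prkar2b was at 85.0 CPM in the control and 42.8 in the KO (-0.98, -1.55 to -0.45), and Prkar1a at 251 and 193 (-0.38, -0.65 to -0.11). Akr1b7, an aldose reductase-like enzyme known to respond to ACTH in the adrenal, was at 78.3 and 52.8 CPM in the control runs and at 25.4 and 25.2 in the KO runs (-1.38, -2.13 to -0.73). It was at 44.8 and 39.7 CPM in the XX runs (-0.64, -1.17 to -0.14). Of 10 genes of the list with enough UMIs, 6 had a log2 ratio below 0 in the KO comparison, a share near the 57.9% of all genes. At or below -1 were 2 of them, beside 2.27% of all genes, and the median of the list was -0.39. In the XX comparison 9 of 10 were below 0, beside 56.2% of all genes, none at or past 1, with a median of -0.30. The catalytic subunits Prkaca and Prkacb (both -0.41 in the KO), the factor Creb1 (0.01) and the anchoring protein Akap1 (0.16) had intervals that spanned 0 in both comparisons. Adcy3, Adcy6, Crem, Crtc2 and Nr4a1 had too few UMIs for the minimum in either pair, with between 9 and 31 UMIs in each sample.

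Among the regulators of the adrenal, the factor at the top was lower in the KO. Nr5a1 (chromosome 2, 38692656 to 38714542, minus strand) was at 292 and 283 CPM in the control runs, 152 and 126 in the KO runs and 194 and 164 in the XX runs. The log2 ratio was -1.06 for the KO (-1.37 to -0.77) and -0.67 for the XX control (-0.92 to -0.43), and the runs of the 3 samples did not overlap. Run 1 alone gave -0.93 for Nr5a1 in the KO. Nr0b1 (DAX1), a repressor of NR5A1 on chromosome X, was low and uneven: 41.9 and 16.01 CPM in the control, 22.8 and 7.75 in the KO (-1.04, -2.10 to -0.14) and 8.97 and 12.6 in the XX control (-1.46, -2.52 to -0.57). The runs of the control and the KO overlapped, and run 2 alone gave -0.31 for Nr0b1 in the XX comparison. Nr3c1, the glucocorticoid receptor, was at 46.1 CPM in the control, 21.97 in the KO (-1.05, -1.88 to -0.33) and 44.9 in the XX control (-0.04, -0.59 to 0.51). Run 2 alone gave -0.80 for Nr3c1 in the KO.

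Wnt4, a signal of the outer adrenal cortex and of the ovary, had the highest log2 ratio in the KO of the 17 regulators with enough UMIs. It was at 509 and 480 CPM in the control runs, 896 and 860 in the KO runs and 359 and 233 in the XX runs. The log2 ratio was 0.82 for the KO (0.67 to 0.97) and -0.72 for the XX control (-0.90 to -0.53), so that the samples stood in the order XX control, XY control, XY KO with no overlap of runs. This order was not particular to adrenal cells. In the same order, Wnt4 was at 150, 262 and 499 CPM in mesonephric tubules and at 103, 131 and 192 in epithelial cells. Some other types had another order, such as mesonephros cells at 260, 363 and 328 CPM. Shh, a signal of the outer cortex that is named because of its values, had 18 UMIs in the control, 22 in the KO and 4 in the XX control, with log2 ratios of 0.87 (-0.09 to 1.86) and -1.88 (-4.03 to -0.41). Its target Gli1 had 17, 16 and 30 UMIs.

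Of the other regulators, Pbx3, a homeodomain factor with a miR-17 site, was at 105 CPM in the control, 138 in the KO (0.40, 0.04 to 0.76) and 94.8 in the XX control (-0.14, -0.51 to 0.22). Ctnnb1, beta-catenin, was lower in both comparisons (-0.42, -0.64 to -0.21, and -0.36, -0.55 to -0.16). Dlk1, an imprinted gene of the adrenal progenitor layer, was at 1442, 1508 and 985 CPM, with the difference in the XX comparison (-0.55, -0.65 to -0.45). Nr2f1, an orphan nuclear receptor, was lower in the KO (-0.41, -0.60 to -0.22) and even in the XX control (0.02, -0.14 to 0.18). Wt1, Cited2, Tcf21, Gata6, Hoxb9, Gli3, Ptch1, Znrf3 and Nr2f2 had intervals that spanned 0 in both comparisons. Some of them were uneven: Hoxb9 in the KO was at 0.17 in run 1 and -0.74 in run 2, Tcf21 in the XX comparison at -1.06 in run 1 and 0.68 in run 2, and Nr2f2 there at -0.63 and 0.28. In XX cells under 30000 UMIs the log2 ratio was -0.97 for Wt1 and -2.01 for Tcf21. Gata4 had 15, 23 and 25 UMIs in the control, KO and XX control, with KO runs at 7.61 and 38.7 CPM. Over 17 regulators with enough UMIs, 14 were below 0 in the KO comparison and 13 in the XX comparison, beside 57.9% and 56.2% of all genes, with medians of -0.23 and -0.16. Of these, 3 and 1 were at or below -1, beside 2.27% and 1.16% of all genes, and none at or above 1.

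To see which genes marked the adrenal cells besides the known ones, each gene with at least 100 UMIs in control adrenal cells was set against each of the 12 other types of the same sample, and its smallest log2 ratio was kept. This smallest ratio was at or above 1 for 30 of 2508 genes, or 1.2%. The clusters were formed with these same genes, so the ranks are a description. The 15 genes with the highest smallest ratio held Ly6d, a cell surface protein (7.51), C4b, a complement component (5.74), Grin2b, a glutamate receptor subunit (5.46), Adh1, an alcohol dehydrogenase that oxidises retinol (5.10), Ibsp, a bone matrix protein (4.44), Mgarp, a mitochondrial protein known from steroidogenic cells (3.93), Prss35 (3.51), Angpt2, a ligand of the endothelial receptor TIE2 (2.96), Dlgap1 (2.54) and Actr3b (2.08). Cyp21a1 (5.97), Star (3.26), Fdx1 (3.02), Fdxr (2.37) and Mc2r (2.34) completed them.

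These marker genes differed between samples in different ways. They were chosen by their level in XY control adrenal cells, the denominator of both ratios. The choice itself favours log2 ratios below 0. C4b lies on chromosome 17 (34728380 to 34743882, minus strand), 57466 bases from Cyp21a1, in a segment that is duplicated in the mouse. It was at 91.8 and 109 CPM in the control runs, 12.7 and 17.4 in the KO runs and 43.3 and 77.5 in the XX runs, with log2 ratios of -2.65 (-3.60 to -1.90) and -0.76 (-1.19 to -0.34). On the other side of Cyp21a1, Stk19, Dxo, Skiv2l and Nelfe had log2 ratios of 0.24, -0.09, -0.51 and 0.21 in the KO, none of them as low as Cyp21a1 or C4b. Counts of C4b could be split with its duplicate.

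Ly6d was concentrated in few cells: 236 UMIs lay in 42 of 241 control cells, with up to 24 in 1 cell, 71 UMIs in 16 KO cells and 29 UMIs in 7 XX cells. It was at 238 and 96.1 CPM in the control runs, 63.4 and 89.1 in the KO runs and 26.9 and 19.8 in the XX runs. Its log2 ratio was -1.14 for the KO (-1.55 to -0.76) and -2.85 for the XX control (-3.48 to -2.31), and the control runs differed by more than those of the other samples. In run 2 alone the log2 ratio of Ly6d in the KO was -0.11, so that its difference rests on run 1 (-1.88). Ibsp was found in 53, 24 and 23 cells, and it stood higher in the XX control, at 239 and 238 CPM against 99.9 and 123 in the XY control (1.11, 0.82 to 1.40). Of its 292 XX UMIs, 61 came from 1 cell. Mgarp (-1.01, -1.46 to -0.59), Grin2b (-0.80, -1.16 to -0.46), Adh1 (-0.74, -1.005 to -0.48) and Angpt2 (-0.75, -1.26 to -0.27) were lower in the KO, whereas in the XX comparison the intervals of these 4 genes spanned 0. Prss35 was lower in both (-0.37, -0.66 to -0.09, and -0.34, -0.60 to -0.09). Dlgap1 and Actr3b had intervals that spanned 0 in the KO.

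The genes with the largest ratios were named among those with the same sign in every pairing of runs. Besides Mir17hg (log2 ratio 3.80, 3.05 to 4.75), the highest in the KO were Tnni1, a slow muscle troponin (1.75, 1.25 to 2.29), Bmp4, a growth factor (1.74, 1.21 to 2.31), Dact1, a regulator of WNT signalling (1.56, 1.07 to 2.09), Gm26735, Plekhm3, Rnaseh2b, St3gal4, Myl9, a smooth muscle myosin light chain (1.40, 1.01 to 1.80), and Zfp593. Run 1 alone gave 0.82 for Gm26735 and 0.81 for Zfp593, and run 2 alone 0.92 for Plekhm3. Bmp4 was at 27.002 and 35.2 CPM in the control runs, 104 and 103 in the KO runs and 46.3 and 12.6 in the XX runs. It was detected in 34 of 241 control and 59 of 127 KO cells. Dact1 was at 35.1 and 40.0 CPM in the control, 99.0 and 120 in the KO and 31.4 and 43.3 in the XX control. For both genes the KO stood alone above the other samples.

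The lowest in the KO was H19, an imprinted non-coding RNA made from the maternal chromosome. It was at 903 and 852 CPM in the control runs, 7.61 and 1.94 in the KO runs and 1370 and 1224 in the XX runs, a log2 ratio of -7.48 for the KO (-9.52 to -6.29). Only 3 of 127 KO cells held a UMI of H19, against 155 of 241 control cells. H19 was also low in other types of the KO: the log2 ratio was -6.53 in pre-supporting cells and -5.35 in supporting-like cells. On a list of 32 imprinted genes, 23 had enough UMIs. Of these 23, H19 was the only 1 past a log2 ratio of 1, and their median was -0.01. The list does not hold every imprinted gene, so others outside it may be past 1. In the XX comparison the only gene of the list past 1 was Mirg (-1.18, -1.96 to -0.48). After H19 came Magi2, a scaffold protein with a miR-19 site (-2.79, -4.39 to -1.70), C4b, the immediate early factor Egr1 (-2.59, -4.04 to -1.55), Gm2694, Mrap, Sptb (-2.05), Abca1, AU021092 (-1.99) and Ptprz1 (-1.93). Magi2 had 0 UMIs in run 1 of the KO, where the log2 ratio (-5.39) depends on the prior count, and -1.86 in run 2.

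In the XX comparison, Xist and its antisense gene Tsix were highest, and Xist was at least 389-fold higher than the level that 0 UMIs allow in the XY control. The others were Tagln, Slc8a1 (1.52, 0.69 to 2.48), Gfra3 (1.43), Lor, Gm45889, Kit, a receptor tyrosine kinase of germ and progenitor cells (1.31, 0.54 to 2.17), Lnpk and Hoxb5 (1.26). In Tagln 1 cell held 28 of its 48 XX UMIs, and its log2 ratio of 2.37 was 1.27 without the highest cell of each sample. The lowest were Tpm3-rs7, a retrocopy of a tropomyosin gene (-4.35, -6.42 to -3.11), Mid1 on chromosome X (-3.45, -4.49 to -2.66), Fosb (-3.13), Ly6d, Fos (-2.33), Lynx1 (-2.31), Egr1 (-1.79), Pex5 (-1.61), AU021092 (-1.55) and Slc35e1 (-1.47). Fosb had 0 UMIs in run 1 of the XX control, where the log2 ratio (-6.62) depends on the prior count, and -1.85 in run 2. Run 1 alone gave 0.75 for Kit, and run 2 alone 0.60 for Lor, 0.78 for Hoxb5, 1.36 for Tagln and -1.49 for Lynx1. In XX cells under 30000 UMIs Lor was at 0.77 and Gm45889 at 0.999. Tpm3-rs7 shares sequence with its parent gene, so that its counts are uncertain.

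**Figure D3:**
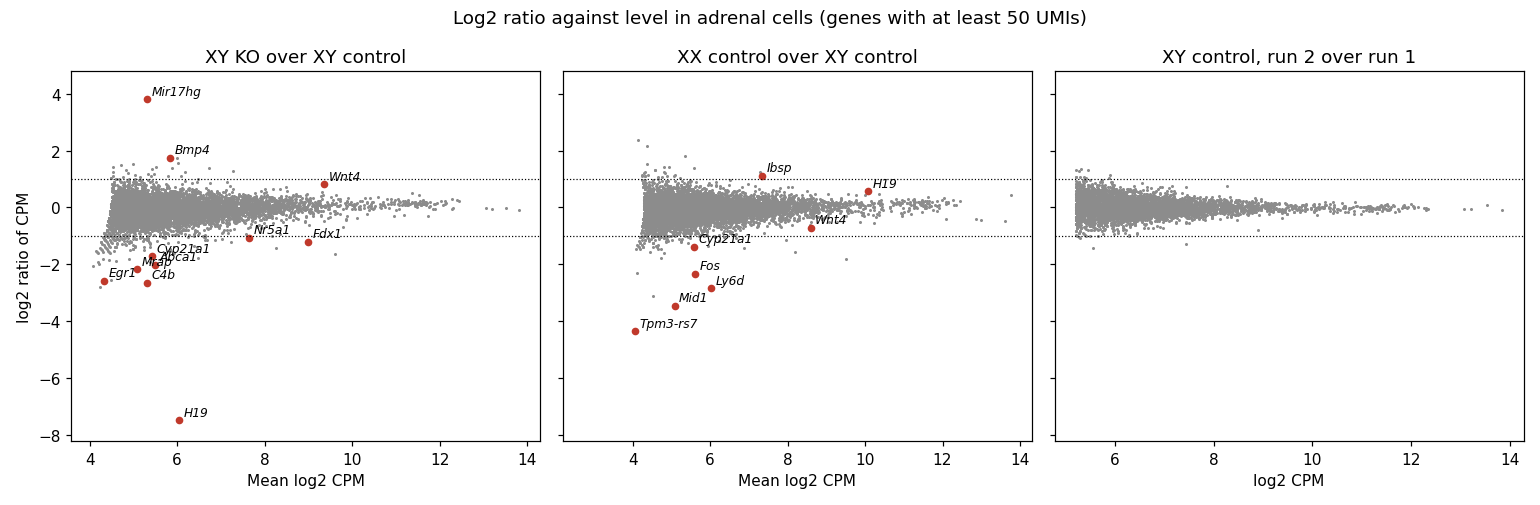
Log2 ratio of CPM in adrenal cells (vertical axis) against the mean log2 CPM of the samples compared (horizontal axis), 1 point per gene with 50 UMIs or more in the pair, for the XY KO, the XX control and, as the technical spread, the runs of the XY control. Dotted lines mark log2 ratios of -1 and 1, Xist and Tsix lie above the axis in the XX panel, and the runs of the control stay between the lines for all but 16 of 4802 genes.

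Lists of other processes differed in different ways. Of 31 genes of S and G2M phase, 30 had enough UMIs in the KO comparison and none was at or past a log2 ratio of 1, with a median of -0.07, and the median was 0.17 in the XX comparison. Oxidative phosphorylation genes had medians of -0.03 and 0.00056 over 60 genes. Glycolysis genes had medians on different sides, at 0.14 over 17 genes in the KO and -0.39 over 16 genes in the XX comparison. No gene was at or past 1. Ldhb went against both medians, at -0.66 (-0.92 to -0.42) in the KO and 0.44 (0.26 to 0.63) in the XX comparison. In the KO comparison 13 of the 17 were above 0, beside 2750 of all 6530 genes. Both KO runs lay above both control runs for 8 of them and below for 2, beside 17.4% and 28.7% of all genes. In the XX comparison 14 of the 16 were below 0, beside 56.2% of all genes, and 12 had both XX runs below both XY runs, beside 26.4%. Among regulators of the G1 phase, Cdkn1b, the cell cycle inhibitor p27, was at 45.4 CPM in the control and 19.8 in the KO (-1.17, -2.04 to -0.42), and the list's median was 0.18 over 10 genes. Of the mesenchyme markers, Prrx1 was at 74.7 and 36.3 CPM (-1.03, -1.66 to -0.46; -0.56 in run 2 alone), with a list median of 0.13 over 7 genes. Gonadal somatic markers had medians of -0.06 and 0.21, with none at or past 1. Of the germ cell markers, Dppa5a was past -1 in the KO (-1.27, -2.42 to -0.33) and Kit past 1 in the XX control, as given above.

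Genes that respond to dissociation stood higher in the XY control than in the other samples. In the order XY control, KO and XX control, Jun was at 229, 97.8 and 123 CPM, Fos at 108, 70.3 and 21.2, Egr1 at 49.1, 7.69 and 13.9, and Hspa1a, a heat shock protein, at 35.2, 16.5 and 23.7. In run 1 alone the log2 ratio of Hspa1a in the KO was -0.58. Of 9 such genes with enough UMIs in the KO comparison, 8 were below 0 and 3 at or below -1, beside 57.9% and 2.27% of all genes, with a median of -0.57. In the XX comparison all 10 were below 0 and 3 at or below -1, beside 56.2% and 1.16% of all genes, with a median of -0.63. The control thus differed from both other samples in these genes and in globins, in the same direction as in most steroid synthesis genes. For globins the samples were not filtered alike, as given above. The part of handling and of such RNA in the steroid synthesis values was not tested. With totals that leave out globins, mitochondrial and ribosomal protein genes, the log2 ratio of Cyp11a1 in the KO was -1.10 and that of Fdx1 was -1.18.

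The median of genes with an 8mer site of the deleted miRNAs lay close to that of other genes in adrenal cells. The other genes include any that have shorter seed matches only, which were not searched. In the KO comparison 860 genes with an 8mer site of any family had a median log2 ratio of -0.09, and 5562 genes with a 3′ UTR and no such site had -0.06. Genes with a site of miR-17 had a median of -0.09, of miR-18 -0.11, of miR-19 -0.08 and of miR-92 -0.12. The 3′ UTRs of genes with a site were longer, with a median of 2625 against 1016 bases. Within the longest tercile of 3′ UTRs the medians were -0.13 with and -0.14 without a site, within the middle tercile -0.02 and -0.06, and within the shortest tercile 0.10 and -0.01, the last over 50 genes with a site. Over the pairings of runs the difference between genes with and without a site lay between -0.04 and 0.03. Of the 860 genes, 7 (0.814%) had a log2 ratio at or above 1 and 19 (2.21%) at or below -1, against 0.378% and 2.28% of the genes without a site. In the XX comparison 1 of 919 (0.109%) and 9 (0.979%) did, against 0.338% and 1.17%. There, where the cluster is intact in both samples, the medians were -0.09 and -0.04. For 16 targets of the cluster known from other tissues, none was at or past 1 in the KO, and the median was -0.10.

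**Figure D4:**
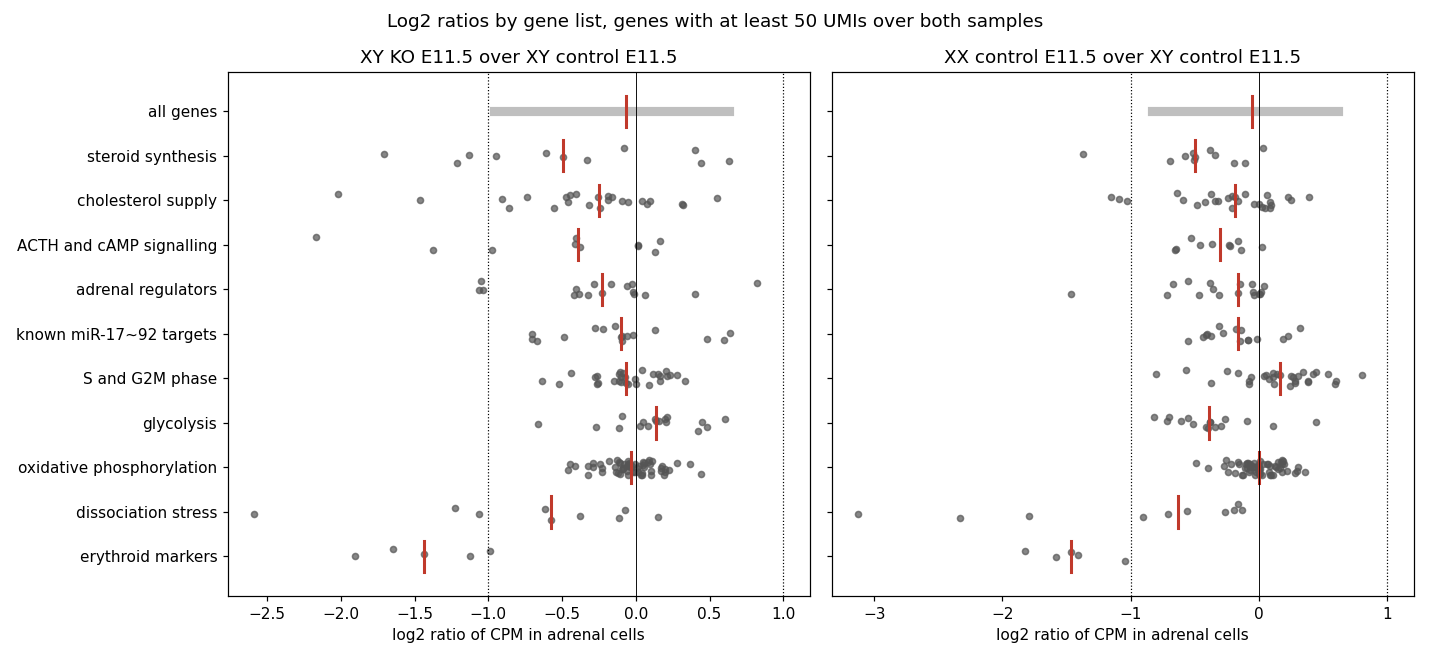
Log2 ratio of CPM in adrenal cells (horizontal axis) for each gene of 10 lists that had 50 UMIs or more in the pair, for XY KO (left) and XX control (right) over XY control. Red lines are medians and the grey bar spans the middle 95% of all genes. The medians of steroid synthesis (-0.49 and -0.50), dissociation stress (-0.57 and -0.63) and erythroid genes (-1.44 and -1.47) lie farthest left in both panels. Medians of all genes (-0.06 and -0.05), cholesterol supply, ACTH and cAMP signalling, adrenal regulators and known targets also lie left of 0 in both. Those of glycolysis (0.14 and -0.39) lie on different sides.

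Some of these differences were also seen in gonadal types that share genes with the adrenal, and others were not. In pre-supporting cells the control had 70.4 CPM of Cyp11a1, against 18.4 in the KO (log2 ratio -1.93, -2.24 to -1.64) and 142 in the XX control (1.01, 0.86 to 1.17), and Star at 27.7, 13.9 (-0.98, -1.37 to -0.62) and 14.2 (-0.96, -1.33 to -0.61). In supporting-like cells of the KO the interval of Star spanned 0 (-0.44, -1.12 to 0.19), whereas Cyp11a1 was lower (-1.34, -2.08 to -0.68), as was Mc2r (-1.10, -1.96 to -0.34), for which the adrenal interval spanned 0. Hsd3b1, higher in KO adrenal cells, was lower in KO pre-supporting cells (-2.45, -4.07 to -1.32), at 0.995 against 5.83 CPM. Nr5a1 differed less there in the KO, with -0.21 (-0.34 to -0.08) in pre-supporting and -0.38 (-0.67 to -0.10) in supporting-like cells, as did Fdx1 with -0.25 (-0.42 to -0.08) and -0.14 (-0.44 to 0.15). Their adrenal intervals, given above, do not overlap these. Wnt4 in the KO was at 0.40 (0.34 to 0.46) in pre-supporting and 0.12 (0.06 to 0.18) in supporting-like cells. In the XX comparison it was at 0.49 (0.43 to 0.55) in pre-supporting cells and -0.24 (-0.32 to -0.17) in supporting-like cells, beside -0.72 in adrenal cells. With 1 sample per group the differences between cell types were not tested.

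Single cells were compared after each was thinned to 3000 UMIs, since depth differed between samples. At this depth Star was detected in 53.5% of 230 control cells (46.8% to 60.1%), 28.3% of 127 KO cells (20.7% to 37.0%) and 34.5% of 55 XX cells (22.2% to 48.6%). In endothelial cells, which should lack it, the shares were 1.15%, 0.362% and 0 of 80 cells, with an upper bound of 4.51%. Median depths of endothelial cells were 4796, 8373.5 and 17632 UMIs. Mc2r was detected in 27.8% of control and 30.7% of KO adrenal cells and in 11 of 55 XX cells, Cyp11a1 in 36.5%, 17.3% and 29.1%, Hsd3b1 in 22.2%, 33.1% and 14.5% and Mrap in 16.5%, 3.15% and 14.5%. The order of the samples differed between thinning depths, each of which rests on a single random draw. In the same 55 XX cells Hsd3b1 was detected in 21.8% at 2000 UMIs, 14.5% at 3000 and 23.6% at 5000. The spread between draws was not measured. At 2000 UMIs Mc2r was detected in 19.4%, 17.3% and 18.2%, and Hsd3b1 in 16.03%, 27.6% and 21.8%, and at 5000 UMIs Cyp11a1 was detected in 41.0%, 31.1% and 29.1%, so that no order is read for Mc2r, nor between the XX and the other samples. At 3000 UMIs the same genes were detected in at most 3.75% of endothelial cells. Wnt4 was detected in 57.0% of control, 78.7% of KO and 50.9% of XX cells, with 8.35%, 4.35% and 10.0% in endothelial cells and 17.6%, 12.5% and 14.9% in immune cells. Without thinning, Star was detected in 165 of 241, 74 of 127 and 50 of 55 cells. Thinning to 3000 UMIs left out 11 control cells and none of the KO or XX control. At 5000 UMIs 97 of 241 control and 21 of 127 KO cells were left out.

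At least 2 of the 5 markers were detected in 40.4% of thinned control cells (34.0% to 47.1%), 22.8% of KO cells (15.9% to 31.1%) and 18.2% of XX cells (9.08% to 30.9%). None of the 5 was detected in 19.1%, 42.5% and 36.4%. Without thinning, the shares with at least 2 were 61.0%, 52.8% and 90.9%, which shows how far depth sets them. The KO and XX shares overlapped after thinning and no order is read between them. Among the cells with at least 2 markers before thinning, the log2 ratio of the KO over the control was -1.15 for Fdx1, -1.02 for Nr5a1 and 1.09 for Wnt4. In the same cells Cyp11a1 was at -0.91, Nr3c1 at -0.77, St3gal4 at 0.89 and Myl9 at 0.98, inside the threshold they had passed over all adrenal cells. Cyp11a1 is 1 of the 5 markers, so the selection itself bears on its value, and depth sets which cells were selected.

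**Figure D5:**
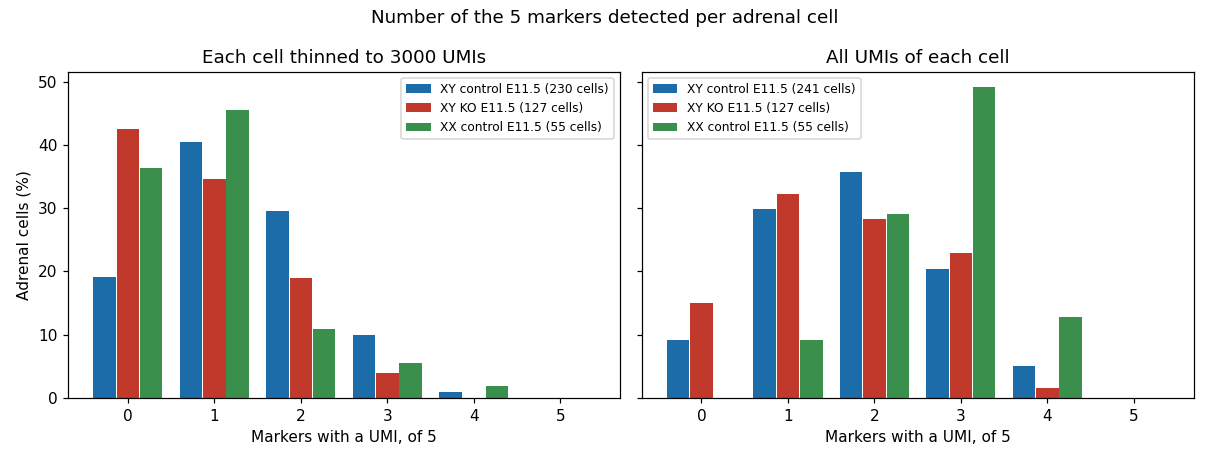
Share of adrenal cells (vertical axis, percent) by the number of the 5 markers with a UMI (horizontal axis), after thinning to 3000 UMIs (left) and with all UMIs (right), for the 3 E11.5 samples. At equal depth the XY control has the lowest share without any marker (19.1%), and with all UMIs 49.1% of the deeper XX cells hold 3 markers.

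The 8 adrenal cells of the XY KO at E11.75 held 57150 UMIs in all. Star had 23 of them, or 402 CPM (255 to 604), Cyp21a1 had 6, Cyp11a1 had 6 and Mc2r had 3. Mir17hg had 12 UMIs, or 210 CPM, and H19 had 2. A count of 0 allows up to 52.5 CPM in so few cells, and stage and deletion cannot be told apart in this sample.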

How the data were processed

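Single-cell RNA-seq (10x 3′ chemistry) was made from methanol-fixed cells of pooled gonads with mesonephros, in 4 samples over 7 libraries. The authors deposited raw UMI counts per gene and cell with a table of cell names, and the counts are not normalized. Per the study's methods, reads were mapped to mm10 with an added Sry exon, and doublets were removed with DoubletFinder. XY cells were kept under 30000 UMIs and filtered on genes, mitochondrial and globin shares, with a globin cutoff that differed between samples. XX cells were filtered by cluster. The submitters' processing notes name Cell Ranger 6.1.1 and Seurat. Cell types are the authors' annotation, made on integrated data.

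Raw counts were summed over adrenal cells per sample and run with pandas 2.3.3 and numpy 2.4.6 (Python 3.11.15), and CPM was taken over all genes. Intervals (scipy 1.17.1) are exact Poisson for CPM, exact conditional binomial for ratios and Clopper-Pearson for shares, at 95%. Log2 ratios used a prior count of 0.5 and genes with 50 UMIs or more in the pair, with a threshold of 1. With 1 sample per group there is no test, and the 2 runs of a sample are technical. A count of 0 allows 3 counts. Cells were thinned to 3000 UMIs with a fixed seed. TMM factors came from edgeR 4.0.16 (R 4.3.3). The calculation was tested on simulated counts. Target sites were searched on the transcript strand in 17304 3′ UTRs of GENCODE M21, 2133 of which held a site, and 98.6% of the gene symbols were found in it. The 8mers were GCACTTTA (miR-17), GCACCTTA (miR-18), TTTGCACA (miR-19) and GTGCAATA (miR-92).

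Named genes are the 5 markers, the members of the steroid, ACTH and regulator lists with 50 UMIs or more in the E11.5 samples, members of other lists past the threshold (at most 4 a list), the 10 highest and 10 lowest genes of each comparison with the same sign in every pairing of runs (mitochondrial, ribosomal protein and globin genes left out), and 15 genes that mark adrenal cells. Alternatives were other scalings, prior counts, minimums, cell selections, single runs and thinning depths. 1 gene of the regulator list is not reported here and was left out of its counts. The cells, the 21 lists and the rules were chosen with earlier results of these data known. Each sample is a pool of several pairs of gonads.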

Additional observations from a re-analysis of the deposited data

Results flagged for a closer look

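Of 15 steroid synthesis, ACTH and cAMP signalling and regulator genes with at least 10 UMIs in the 8 adrenal cells of the XY KO at E11.75, a sample outside the 2 comparisons above, 4 lay above their level in the XY control at E11.5 with an interval of the log2 ratio that did not reach 0, and 1 lay below. Of all 1106 genes with at least 10 UMIs there, 19.8% lay above and 14.6% below in this way, so the count of 4 is near the share of all genes. Genes entered by their counts in this same sample, which favours ratios above 0. The median log2 ratio was 0.24 over the 15 genes and 0.21 over the 1106. The gene that lay below was Fdx1, at 489.9 CPM (28 UMIs, log2 ratio -0.63, -1.25 to -0.11). Hsd3b1 was at 350.0 CPM (20 UMIs), with a log2 ratio of 1.68 (0.90 to 2.33), beside 111 CPM in the XY control and 172 in the KO at E11.5. Pbx3 was at 315 CPM (18 UMIs, log2 ratio 1.62, 0.79 to 2.30), and Gata6 was at 315 CPM as well (18 UMIs, 1.27, 0.45 to 1.93). Wnt4 was at 805 CPM (46 UMIs, 0.71, 0.23 to 1.13), beside 876 in the KO at E11.5. The values rest on 8 cells of 1 library, the intervals cover counting error only, and stage and deletion cannot be told apart. In these cells UMIs of Gm42418, which overlaps rRNA, came to 10744 CPM against 3751 in the XY control, ribosomal protein genes took 14.3% against 18.8% of UMIs, and mitochondrial genes 6.61% against 4.94%. The sums of mesonephric tubule and mesenchyme markers in these cells were 192 and 1365 CPM, above 60.8 and 579 in the XY control, and the part of all these in the values was not tested.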

How the results depend on the processing

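No paired analysis was possible because each group is 1 sample. The 8 alternatives of the KO comparison left the direction of all 39 named genes past a log2 ratio of 1 as it was, and 24 stayed past it in each; of 32 such genes in the XX comparison, with 9 alternatives, the direction held for 32 and 19 stayed past it. Genes named for the largest ratios had the same sign in every pairing of runs by choice. Other scalings, prior counts or minimums can hardly turn a ratio that is past 1. The unchanged direction was thus largely set in advance and is not read as stability. In runs taken alone, Ly6d (KO) was at -0.11 in run 2 and Stard4 (XX) at -0.14 in run 2. The cause of the following differences was not tested, unless fewer genes or cells entered by construction. Shares of adrenal cells were 1.94% (XY control), 1.55% (KO) and 2.81% (XX) without the mesonephros, and 0.395%, 0.170%, 0.273% and, at E11.75, 0.0236% for cells with at least 2 markers at 3000 UMIs. XX cells under 30000 UMIs had 467 CPM over the 5 markers. Counts of genes past the threshold, higher and lower, were 111 and 402 (KO) and 135 and 268 (XX) at a minimum of 20 UMIs, and 13 and 45 (KO) and 7 and 25 (XX) at 100 UMIs. A prior count of 5 gave 74 and 46 lower genes. Run 1 alone gave 20 and 92 (KO), and run 2 alone 73 lower (KO) and 17 and 52 (XX). Leaving out the cell with the most UMIs of each gene, chosen after seeing the data, gave 14 and 122 (XX). The steroid synthesis median of the KO was -0.61 at 20 and at 100 UMIs, -0.32 as a mean over cells, -0.71 in cells with at least 2 markers, -0.74 in run 2 and -0.56 without the highest cells. That of XX was -0.50 at 20 and 100 UMIs, -0.59 in cells with at least 2 markers and -0.56 without the highest cells. Most of the markers belong to this list, so the selection itself bears on the medians in cells with at least 2 markers. The difference of targets from other genes was -0.0489 at 100 UMIs in the KO, and in XX -0.0113 under 30000 UMIs and -0.00356 in run 2. Cyp17a1 in run 2, with 0 UMIs in every sample, had fitted log2 ratios of 0.27 and 0.17. The share with at least 2 markers was 24.5% (XY control) and 14.2% (KO) at 2000 UMIs, 57.6%, 42.5% and 40.0% (XX) at 5000, and 61.0%, 52.8% and 90.9% not thinned. Genes under 50 UMIs, such as Cyp11b1, Shh and Lipe, are limited by depth.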
